A study of Homo sapiens with 6 samples.

Results

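TGF-beta ligands, receptors and target genes were followed in MCF10A cells that overexpress the potassium channel subunit GIRK1. The group was fixed by gene symbol and holds 10 of the 20802 genes on the amplicon panel: the ligand genes TGFB1, TGFB2, TGFB3 and INHBA, the receptor genes TGFBR1, TGFBR2 and TGFBR3, the decoy receptor gene BAMBI, and the response genes SMAD7 and TGFBI. MCF10A is an established, benign (non-tumorigenic) human mammary epithelial cell line. The 6 libraries are titled as 2 each of wt (untransfected MCF10A, here WT), eGFP (MCF10A stably overexpressing eGFP, the control line) and hG1a, read here with the series' design text and the study's methods as MCF10A stably overexpressing the KCNJ3 gene product GIRK1. According to the study's methods, transfected cells carried a linearized bicistronic GIRK1 and eGFP plasmid or its eGFP control, were selected with G418 and were sorted by eGFP fluorescence, so eGFP and selection are common to the transfected lines and absent from WT cells. The series' design text counts 2 GIRK1 lines and 2 control lines, but the labels tie no library to a line or a culture, so the p-values measure only the spread between these libraries, which may be technical.

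TGF-beta ligands are secreted in a latent form and, once released, bind the type II receptor, which recruits and phosphorylates the type I receptor. The type I receptor phosphorylates SMAD2 and SMAD3, which join SMAD4 and enter the nucleus. SMAD7 and BAMBI act against this signal, and in mammary epithelium the pathway is known for restraining growth and for inducing matrix genes.

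The 5 libraries compared below, which leave out WT replicate 1, held 5126930 to 16040556 reads, so 3 reads corresponded to 0.187 to 0.585 RPM (RPM, an amplicon's reads scaled to a fixed library total). KCNJ3 had 217 and 355 RPM in the GIRK1 libraries and no read in the eGFP libraries or WT replicate 2. The library labelled WT replicate 1 (2506120 reads) stood apart: it had 19.2 RPM of KCNJ3, its 8 luminal markers summed to 13717 RPM against 389.9 to 493 RPM in the other 5 libraries, and its 6 basal markers summed to 52.3 RPM against 6929 to 13591 RPM. KRT14 and KRT17 were at 0 there, TP63 was at 0 in every library, and the fibroblast, endothelial and leukocyte markers PDGFRA, CDH5, PTPRC and CD3E were at 0 in all 6. The 7 fibroblast markers summed to 3.43 to 17.2 RPM, the 3 endothelial markers to 0.09 to 0.399 RPM and the 4 leukocyte markers to 0 to 23.8 RPM, the last from CD68 alone. Since WT replicate 1 goes against its label by these markers, it is shown apart. The names of the deposited data give the GIRK1 libraries a tag that the other 4 do not carry. If that tag is a sequencing run, run and GIRK1 cannot be told apart.

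The question was whether the genes of this pathway differ between GIRK1 overexpressing cells and their controls. TGFB2, INHBA and TGFBI had lower levels in the GIRK1 libraries than in each eGFP library and in WT replicate 2, while SMAD7 and BAMBI overlapped between the groups. No member passed the adjusted threshold by edgeR, the main test, while DESeq2 called TGFB2, INHBA and TGFBI against eGFP. Each member is read by 1 amplicon of 98 to 108 bases, so RPM values are set side by side between libraries and not between genes. Fewer cells of a type and less RNA per cell cannot be told apart in such bulk values. Against the eGFP libraries, 9 of the 10 members had enough reads to be tested, and edgeR (quasi-likelihood fit, p-values adjusted by Benjamini-Hochberg over 11279 genes) called 0 of these 9 at an adjusted p of 0.05, where it called 1.52% of all genes. Without adjustment, 3 members (TGFB2, INHBA and TGFBI) had a p-value under 0.05, against 19.2% of all genes, and DESeq2 called these 3 lower after adjustment, against 6.15% of all genes (4.02% lower and 2.14% higher). Against the eGFP libraries and WT replicate 2 pooled as 3 controls, which shares the GIRK1 and eGFP libraries with the first comparison, edgeR called 0 of 9 members and 1.21% of 11389 genes. Here 3 members were below 0.05 unadjusted against 18.7% of all genes, and DESeq2 called TGFB2 and TGFBI against 7.01% of all genes. Against WT replicate 2 alone, edgeR called 0 of 9 members and 0.229% of all genes, and only TGFB2 had an unadjusted p-value under 0.05, against 7.38% of all genes. The median log2 fold change was -0.51 over the 9 tested members and 0.01 over all genes in the first comparison, and -0.37 and -0.01 in the second.

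Both GIRK1 libraries lay below both eGFP libraries for 5 members (TGFB1, TGFB2, TGFBR2, INHBA and TGFBI) and above them for 2 (TGFBR1 and TGFBR3). Over all genes tested, 25.2% lay below and 29.1% above in the same way. With WT replicate 2 added to the controls, 4 members lay below all 3 (TGFB1, TGFB2, INHBA and TGFBI, against 19.6% of all genes) and TGFBR1 lay above (against 21.6%).

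**Figure D1:**
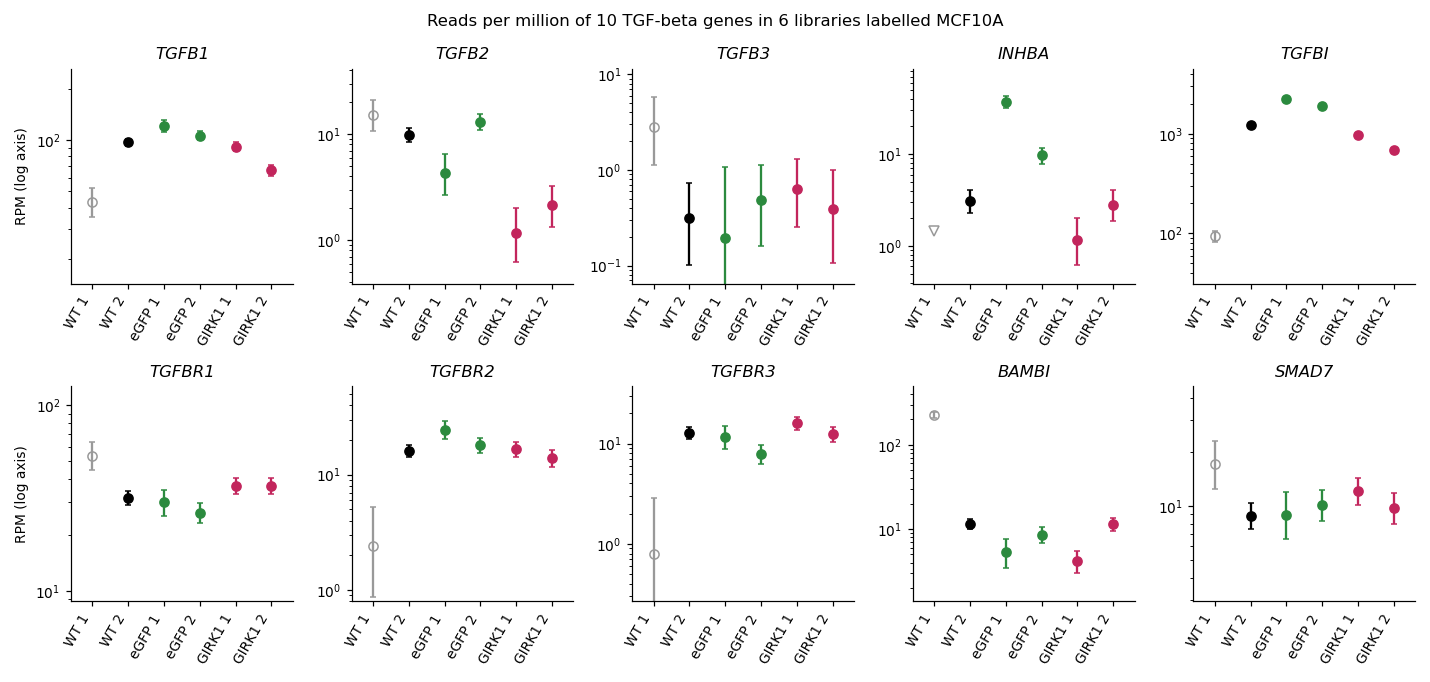
Normalised read counts in RPM (log axis, a separate scale for each gene) of the 10 genes in each library. Points are single libraries with exact 95% counting intervals, the open grey symbols are WT replicate 1, and the triangle marks the upper limit where no read was counted. The GIRK1 libraries are the lowest of the 5 filled points for TGFB1, TGFB2, INHBA and TGFBI, and WT replicate 1 stands apart with 227 RPM of BAMBI.

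Among the ligand genes, TGFB2 had log2 fold changes of like size against eGFP and against WT replicate 2, none of which passed the adjusted test by edgeR. TGFB2 (chromosome 1, 218346235 to 218444619, GRCh38, GENCODE 29, plus strand) encodes TGF-beta 2, 1 of the 3 TGF-beta isoforms. It had 13 and 22 reads (1.17 and 2.13 RPM) in GIRK1 replicates 1 and 2, 22 and 133 reads (4.29 and 12.996 RPM) in eGFP replicates 1 and 2, and 158 reads (9.85 RPM) in WT replicate 2. The GIRK1 libraries were thus the lowest, and the gap to eGFP replicate 1 was the narrowest, with exact 95% intervals of 1.33 to 3.22 RPM in GIRK1 replicate 2 and 2.69 to 6.50 RPM in eGFP replicate 1, which overlap. The means were 1.65 ± 0.676 RPM (SD, n = 2) in GIRK1 and 8.64 ± 6.16 RPM (SD, n = 2) in eGFP. The log2 fold change was -2.43 (standard error 0.61, adjusted p = 0.114) against eGFP and -2.48 (standard error 0.53, adjusted p = 0.0836) against the 3 controls, by edgeR, and DESeq2 called it in both (adjusted p = 0.0107 and 0.000706). Against WT replicate 2 alone it was -2.55 (standard error 0.65, adjusted p = 0.373 by edgeR, the single library assumed to vary like the others). Without eGFP replicate 1 TGFB2 passed in both comparisons (log2 fold change -2.97, adjusted p = 0.00239, and -2.77, adjusted p = 0.00277, edgeR), and without eGFP replicate 2 it was -1.48 (adjusted p = 0.101) and -2.15 (adjusted p = 0.266).

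INHBA (chromosome 7, 41667168 to 41705834, minus strand) encodes the inhibin beta A chain, which forms activin A. Its reads were 13 and 29 (1.17 and 2.80 RPM) in GIRK1, 190 and 99 (37.1 and 9.67 RPM) in eGFP and 50 (3.12 RPM) in WT replicate 2. The eGFP libraries differed from each other by 3.83-fold, and WT replicate 2 lay beside the GIRK1 libraries, its exact 95% interval of 2.31 to 4.11 RPM overlapping that of GIRK1 replicate 2 (1.88 to 4.03 RPM). The log2 fold change was -3.60 (standard error 0.77, adjusted p = 0.0861) against eGFP, -3.07 (standard error 1.11, adjusted p = 0.216) against the 3 controls, and -0.63 (standard error 0.90, adjusted p = 0.936) against WT replicate 2 alone, by edgeR. Without eGFP replicate 1 it was -2.27 against eGFP (adjusted p = 0.0215) and -1.64 against the remaining 2 controls (adjusted p = 0.120), and without eGFP replicate 2 it was -4.33 against eGFP (adjusted p = 4.07e-05, edgeR). The panel also reads the antisense gene INHBA-AS1, which had 0 reads in all 6 libraries.

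TGFB1 (chromosome 19, 41301587 to 41353911, minus strand) encodes TGF-beta 1. It had 1014 and 686 reads (91.3 and 66.3 RPM) in GIRK1, 622 and 1084 reads (121 and 106 RPM) in eGFP and 1555 reads (96.9 RPM) in WT replicate 2. GIRK1 replicate 1 was close to WT replicate 2, with exact intervals of 85.8 to 97.1 and 92.2 to 102 RPM that overlap. The log2 fold change was -0.57 (standard error 0.24, adjusted p = 0.263) against eGFP and -0.48 (standard error 0.22, adjusted p = 0.291) against the 3 controls by edgeR, and it passed against eGFP when eGFP replicate 2 was left out (-0.73, adjusted p = 0.0303). Without GIRK1 replicate 2 it was -0.38 against eGFP (adjusted p = 0.908, edgeR). TGFB3, the third isoform (chromosome 14, 75958099 to 75982991, minus strand), had 7 and 4 reads in GIRK1, 1 and 5 in eGFP and 5 in WT replicate 2, between 0.195 and 0.630 RPM, and was not tested. A difference in TGFB3 was not detectable at this depth.

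TGFBI (chromosome 5, 136028895 to 136063818, plus strand) encodes a secreted matrix protein named for its induction by TGF-beta. TGFBI had 10827 and 7134 reads (975 and 689.5 RPM) in GIRK1, 11381 and 19581 reads (2219.8 and 1913 RPM) in eGFP and 19882 reads (1239 RPM) in WT replicate 2. The 5 libraries did not overlap in their counting intervals, and WT replicate 2 lay between the GIRK1 and the eGFP libraries. The means were 832 ± 202 RPM (SD, n = 2) in GIRK1 and 2067 ± 217 RPM (SD, n = 2) in eGFP, which the fit put at -1.36 on the log2 scale (standard error 0.26, adjusted p = 0.0646, edgeR). Against the 3 controls it was -1.14 (standard error 0.31, adjusted p = 0.134), and against WT replicate 2 alone -0.56 (standard error 0.30, adjusted p = 0.766), by edgeR. Against eGFP the adjusted p of TGFBI was 0.00965 without eGFP replicate 1, 0.000803 without eGFP replicate 2, 0.111 without GIRK1 replicate 1 and 0.335 without GIRK1 replicate 2, and against the 3 controls it was 0.0428 without eGFP replicate 1 (edgeR). By the criterion of the study's methods, which asks for means at least 2-fold apart and limits the variation between replicates, TGFBI was the 1 member of 10 called, against 9.92% of all genes, so the members' share is near that of all genes.

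The upstream sequences of TGFB2, INHBA and TGFBI are shown because these 3 members had the lowest unadjusted p-values. They come from the RefSeq promoter windows of GRCh38.p14, run 5′ to 3′ on the gene's strand, cover the 250 bases before the RefSeq start, and stop before the first base that GENCODE 29 annotates as UTR, which left 250, 232 and 157 bases. They lie at chr1:218345086-218345335 (TGFB2, plus strand), chr7:41703109-41703340 (INHBA, minus strand) and chr5:136028738-136028894 (TGFBI, plus strand). The RefSeq start of TGFB2 lies before the start of the GENCODE gene given above. The INHBA stretch lies before its RefSeq start but inside the GENCODE gene given above. Capitals mark CAGAC, the short SMAD-binding element, on either strand, the AP-1 motif TGAGTCA and the CRE motif TGACGTCA, also on either strand, and TATAAA on the gene's strand.
TGFB2: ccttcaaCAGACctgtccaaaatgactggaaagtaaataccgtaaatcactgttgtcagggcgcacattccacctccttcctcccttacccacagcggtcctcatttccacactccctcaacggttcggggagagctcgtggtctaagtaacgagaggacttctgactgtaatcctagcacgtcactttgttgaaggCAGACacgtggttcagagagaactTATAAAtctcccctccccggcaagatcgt
INHBA: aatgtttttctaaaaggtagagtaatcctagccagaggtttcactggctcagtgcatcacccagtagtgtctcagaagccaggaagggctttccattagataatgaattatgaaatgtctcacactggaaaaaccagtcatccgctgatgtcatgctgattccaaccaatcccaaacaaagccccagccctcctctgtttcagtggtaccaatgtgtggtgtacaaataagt
TGFBI: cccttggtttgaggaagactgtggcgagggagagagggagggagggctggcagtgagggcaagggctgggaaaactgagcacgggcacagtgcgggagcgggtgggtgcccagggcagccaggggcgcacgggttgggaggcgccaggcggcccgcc
TGFB2 held CAGAC at 2 positions, whose first bases lie 243 and 53 bases before the start, and TATAAA 29 bases before it. The stretches of INHBA and TGFBI held none of these motifs, and in the bases of the INHBA window left out here TATAAA begins 11 bases before the start. Of 35116 RefSeq windows of 250 bases, 38% held CAGAC, 4.2% TGAGTCA, 1.65% TGACGTCA and 6.8% TATAAA. A match of letters is a description and says nothing of binding.

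The log2 fold changes of the 3 receptor genes lay between -0.51 and 0.53 against eGFP, and edgeR called none of them in either comparison. TGFBR1 (chromosome 9, 99104038 to 99154192, plus strand), the type I receptor, had 407 and 381 reads (36.6 and 36.8 RPM) in GIRK1, 154 and 269 reads (30.0 and 26.3 RPM) in eGFP and 31.9 RPM in WT replicate 2. The GIRK1 libraries were the highest of the 5, though their intervals (33.2 to 40.4 RPM in GIRK1 replicate 1) overlapped those of WT replicate 2 (29.2 to 34.7 RPM) and eGFP replicate 1 (25.5 to 35.2 RPM). The log2 fold change was 0.34 (standard error 0.23, adjusted p = 0.444) against eGFP and 0.30 (standard error 0.18, adjusted p = 0.423) against the 3 controls by edgeR. TGFBR2 (chromosome 3, 30606502 to 30694142, plus strand), the type II receptor that binds the ligand first, had 184 and 144 reads (16.6 and 13.9 RPM) in GIRK1, 125 and 184 reads (24.4 and 18.0 RPM) in eGFP and 257 reads (16.0 RPM) in WT replicate 2, which lay between the 2 GIRK1 libraries. Its log2 fold change was -0.51 (standard error 0.29, adjusted p = 0.371) against eGFP and -0.37 (standard error 0.27, adjusted p = 0.503) against the 3 controls, and it passed against eGFP when eGFP replicate 2 was left out (-0.78, adjusted p = 0.0487, edgeR). Without eGFP replicate 1 it was -0.23 (adjusted p = 0.657, edgeR). TGFBR3 (chromosome 1, 91680343 to 91906335, minus strand), the coreceptor betaglycan that presents TGF-beta 2 to the signalling receptors, had 178 and 128 reads (16.0 and 12.4 RPM) in GIRK1, 59 and 80 reads (11.5 and 7.82 RPM) in eGFP and 206 reads (12.8 RPM) in WT replicate 2. Again WT replicate 2 lay between the GIRK1 libraries, and the log2 fold change of TGFBR3 was 0.53 (standard error 0.33, adjusted p = 0.423) against eGFP and 0.38 (standard error 0.29, adjusted p = 0.513) against the 3 controls by edgeR.

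The negative regulators SMAD7 and BAMBI showed no difference larger than the spread between replicates. SMAD7 (chromosome 18, 48919853 to 48952052, minus strand), an inhibitory SMAD that TGF-beta itself induces and that blocks the type I receptor, had 135 and 101 reads (12.2 and 9.76 RPM) in GIRK1, 46 and 104 reads (8.97 and 10.2 RPM) in eGFP and 8.85 RPM in WT replicate 2. The groups overlapped, and the log2 fold change was 0.16 (standard error 0.29, adjusted p = 0.796) against eGFP and 0.21 (standard error 0.23, adjusted p = 0.665) against the 3 controls by edgeR. BAMBI (chromosome 10, 28677342 to 28682939, plus strand), a pseudoreceptor without a kinase domain, had 46 and 118 reads (4.14 and 11.4 RPM) in GIRK1, 27 and 87 reads (5.27 and 8.50 RPM) in eGFP and 185 reads (11.5 RPM) in WT replicate 2. GIRK1 replicate 1 was the lowest of the 5 and GIRK1 replicate 2 lay beside WT replicate 2, the highest. The fit gave 0.13 against eGFP on the log2 scale (standard error 0.53, adjusted p = 0.912), which turned to -0.79 without GIRK1 replicate 2 and to -0.12 without eGFP replicate 1 (edgeR). Against the 3 controls it was -0.15 (standard error 0.48, adjusted p = 0.895, edgeR).

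**Figure D2:**
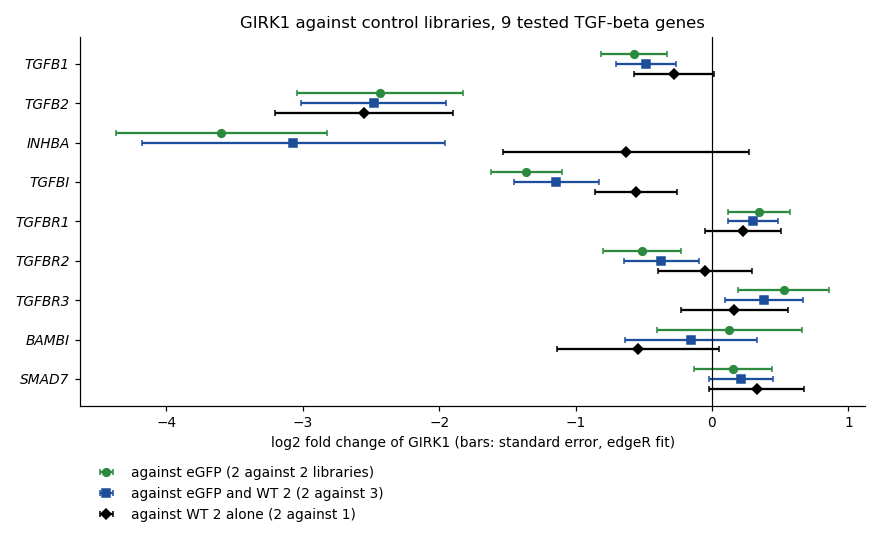
Log2 fold change of the GIRK1 libraries (horizontal axis) for the 9 tested genes, against eGFP, against the 3 controls and against WT replicate 2 alone, with the standard error of the edgeR fit as bars. TGFB2 stays between -2.55 and -2.43 in the 3 comparisons, which share the GIRK1 libraries, whereas INHBA moves from -3.60 to -0.63 and TGFBI from -1.36 to -0.56.

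The genes around the 10 members were read from 7 lists of 101 different genes, of which 60 were tested against eGFP and 6 stand on more than 1 list. The lists were chosen with earlier results of these data known, so their counts describe these libraries and are no independent test. Genes that TGF-beta is known to induce in various cells made up the list with the lowest median. Of its 28 genes 24 were tested, 21 had a negative log2 fold change against eGFP (48.9% of all genes did), and the median was -1.38 against 0.01 over all genes. By edgeR 1 of the 24, THBS1, was called lower (0.745% of all genes were) and 0 higher (0.78%). At an unadjusted p-value under 0.05, 13 were lower and 0 higher, where 10.8% of all genes were lower and 8.42% higher. DESeq2 called 10 of them lower (4.02% of all genes) and 0 higher. Against the 3 controls 20 of 24 were negative (50.7% of all genes), with a median of -0.99, 10 of 24 were lower at an unadjusted p-value under 0.05 (10.2% of all genes) and 0 higher (8.58%). Here edgeR called 0 of them (0.413% of all genes were called lower and 0.799% higher) and DESeq2 called 4 lower (4.06% of all genes). These counts depend on the eGFP libraries as well as on the GIRK1 libraries. The median log2 ratio of RPM + 0.5 to WT replicate 2 over the 24 genes was 1.42 in eGFP replicate 1, 0.42 in eGFP replicate 2, -0.28 in GIRK1 replicate 1 and -0.49 in GIRK1 replicate 2, while over all tested genes it was between -0.11 and 0.00. WT replicate 2, the reference at 0, thus lay between the eGFP and the GIRK1 libraries.

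THBS1, which encodes thrombospondin 1, a matrix protein known to release TGF-beta from its latent complex, fell from 426 and 319.8 RPM in eGFP to 68.6 and 87.0 RPM in GIRK1, with 157 RPM in WT replicate 2. The log2 fold change was -2.31 (standard error 0.28, adjusted p = 0.0185) against eGFP and -1.99 (standard error 0.44, adjusted p = 0.0908) against the 3 controls by edgeR, and against eGFP the call was lost without GIRK1 replicate 1 (adjusted p = 0.0703). In the second comparison it passed without eGFP replicate 1 (adjusted p = 0.0127, edgeR). Leaving out WT replicate 2 there gives the first comparison again and adds no further result. ANGPTL4, which encodes an inhibitor of lipoprotein lipase, had 288 RPM in eGFP replicate 1 but 23.9 RPM in eGFP replicate 2, 12.7 RPM in WT replicate 2 and 9.90 and 6.57 RPM in GIRK1 (log2 fold change -4.32 against eGFP, adjusted p = 0.116, edgeR). For both genes each eGFP library and WT replicate 2 were above both GIRK1 libraries. For ANGPTL4, however, eGFP replicate 1 stood far above the other control libraries.

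**Figure D3:**
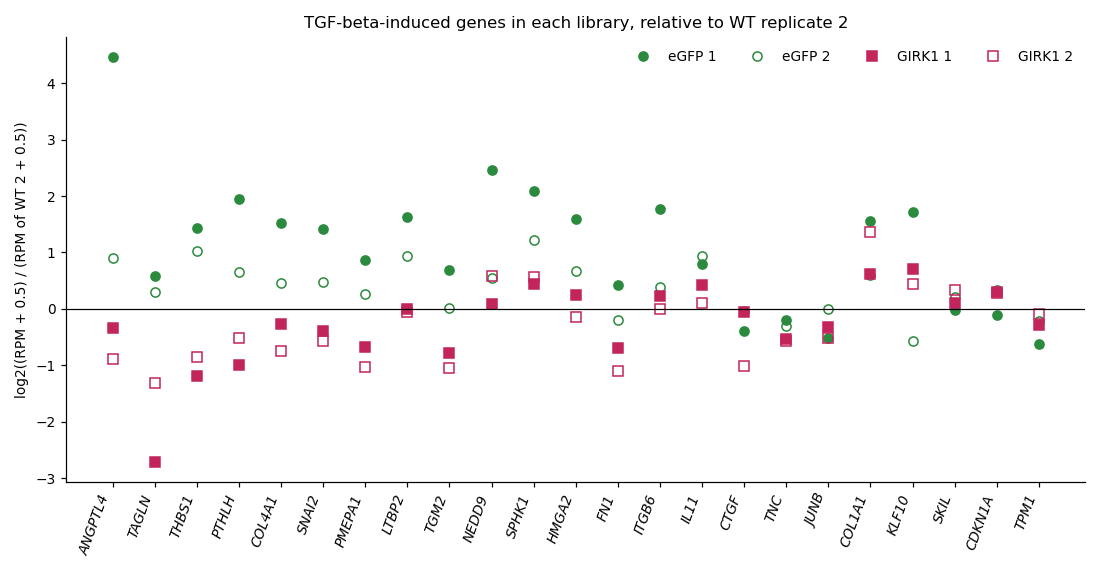
Log2 of (RPM + 0.5) in each eGFP and GIRK1 library over that of WT replicate 2 (vertical axis) for 23 of the 24 tested TGF-beta-induced genes, ordered by the difference between the eGFP and the GIRK1 means. Over all 24 genes the medians were 1.42 and 0.42 in the eGFP libraries and -0.28 and -0.49 in the GIRK1 libraries, and the genes at the right edge, such as SKIL, CDKN1A and TPM1, show no such order.

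Of the 12 genes of latency and activation 10 were tested, 7 with a negative value against eGFP (48.9% of all genes were negative). The median was -0.23, against 0.01 over all genes. At an unadjusted p-value under 0.05 by edgeR, 3 were lower and 2 higher against eGFP (10.8% and 8.42% of all genes). Against the 3 controls 1 was lower and 2 higher (10.2% and 8.58% of all genes). THBS1 is also on this list and is the 1 gene of it that edgeR called, against eGFP (0.745% of all genes were called lower). DESeq2 called THBS1 and LTBP2 lower against eGFP (4.02% of all genes were called lower). Against the 3 controls it called THBS1 lower (4.06% of all genes) and LTBP3 and LTBP4 higher (2.95%). LTBP3 and LTBP4, latent TGF-beta binding proteins, are named after their values were seen. LTBP3 had 16.6 and 14.5 RPM in GIRK1, 7.80 and 8.31 RPM in eGFP and 8.29 RPM in WT replicate 2 (log2 fold change 0.91, adjusted p = 0.151 against eGFP and 0.102 against the 3 controls, edgeR). LTBP4 had 84.0 and 66.8 RPM in GIRK1, 43.3 and 51.7 RPM in eGFP and 49.6 RPM in WT replicate 2 (log2 fold change 0.63 against eGFP, adjusted p = 0.191, and 0.62 against the 3 controls, adjusted p = 0.134, edgeR). Both were above all 3 controls in both GIRK1 libraries, as were 21.6% of all genes. LTBP2, of the same family, had 16.8 and 10.3 RPM in eGFP, 5.11 RPM in WT replicate 2 and 5.13 and 4.93 RPM in GIRK1 (adjusted p = 0.118 against eGFP, edgeR). ITGB6, the beta 6 chain of an integrin that activates latent TGF-beta, had 66.1 RPM in eGFP replicate 1, 24.8 RPM in eGFP replicate 2, 19.0 RPM in WT replicate 2 and 22.4 and 18.8 RPM in GIRK1 (adjusted p = 0.244 against eGFP, edgeR). For LTBP2 and ITGB6 WT replicate 2 had the level of the GIRK1 libraries.

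Of the 16 inhibitors 11 were tested, and edgeR called 1, DCN, against eGFP, where it was higher (0.78% of all genes were called higher). DESeq2 called DCN higher and PMEPA1 lower in both comparisons. Of all genes it called 2.14% higher and 4.02% lower against eGFP, and 2.95% higher and 4.06% lower against the 3 controls. DCN encodes decorin, a small proteoglycan that binds TGF-beta, and rose from 0.780 and 3.71 RPM in eGFP to 27.0 and 25.2 RPM in GIRK1, with 10.2 RPM in WT replicate 2. Its log2 fold change was 3.37 (standard error 0.51, adjusted p = 0.0371) against eGFP, and 2.29 (standard error 0.66, adjusted p = 0.145) against the 3 controls by edgeR. DCN passed against eGFP with each library left out in turn, but its log2 fold change was 4.94 without eGFP replicate 2 and 2.82 without eGFP replicate 1, which held 4 reads of DCN, and in the second comparison it passed without eGFP replicate 1 (adjusted p = 0.0161, edgeR). PMEPA1, a membrane protein that TGF-beta induces and that holds back SMAD2 and SMAD3, had 37.4 and 24.3 RPM in eGFP, 20.3 RPM in WT replicate 2 and 12.5 and 9.66 RPM in GIRK1 (adjusted p = 0.0869 against eGFP and 0.123 against the 3 controls, edgeR). TGIF2, a nuclear corepressor of SMADs, had 18.1 and 17.3 RPM in eGFP, 14.0 RPM in WT replicate 2 and 11.6 and 10.2 RPM in GIRK1 (adjusted p = 0.200 against eGFP, edgeR). PMEPA1 and TGIF2 were thus lower in both GIRK1 libraries than in all 3 controls, without passing by edgeR. Of the 11 tested inhibitors 5 lay below all 3 controls in this way and 3 above, against 19.6% and 21.6% of all genes.

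Of the 7 SMAD genes 5 were tested and 0 were called in either comparison by edgeR or by DESeq2. EdgeR called 1.52% and 1.21% of all genes in the 2 comparisons, and DESeq2 6.15% and 7.01%. By edgeR 1 (SMAD3) had an unadjusted p-value below 0.05 against eGFP (19.2% of all genes). Against the 3 controls 0 did (18.7% of all genes). SMAD3 had 68.1 and 59.1 RPM in eGFP, 39.0 RPM in WT replicate 2 and 37.8 and 35.8 RPM in GIRK1, a log2 fold change of -0.83 (adjusted p = 0.122) against eGFP. SMAD2, the other SMAD that the TGF-beta receptor phosphorylates, had 87.6 and 91.9 RPM in eGFP, 85.9 RPM in WT replicate 2 and 67.8 and 77.3 RPM in GIRK1 (adjusted p = 0.382), and SMAD1, which BMP receptors phosphorylate, had 17.4 and 34.0 RPM in eGFP, 37.8 RPM in WT replicate 2 and 35.7 and 29.2 RPM in GIRK1 (adjusted p = 0.640, edgeR). SMAD3 in WT replicate 2 was at the GIRK1 level, whereas SMAD2 there was at the eGFP level.

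Among the other receptors of the family 8 of 11 were tested, 7 with a positive log2 fold change against eGFP and 6 against the 3 controls. EdgeR and DESeq2 called 0 of them in either comparison. Of all genes edgeR called 1.52% and 1.21%, and DESeq2 6.15% and 7.01%. By edgeR 2 had an unadjusted p-value below 0.05 against eGFP, BMPR2 (higher) and ENG (lower), against 19.2% of all genes. Against the 3 controls 1 did (ENG, lower), against 18.7% of all genes. BMPR2, the BMP type II receptor, had 43.3 and 42.9 RPM in GIRK1 against 25.9 and 28.1 RPM in eGFP, with 39.2 RPM in WT replicate 2 (adjusted p = 0.182 against eGFP). ENG, which encodes the coreceptor endoglin, had 27.1 and 21.9 RPM in GIRK1 against 34.5 and 38.5 RPM in eGFP and 38.0 RPM in WT replicate 2 (adjusted p = 0.221 against eGFP, edgeR). BMPR1B, a BMP type I receptor, had 12.0 and 16.3 RPM in GIRK1, 7.61 and 10.4 RPM in eGFP and 15.1 RPM in WT replicate 2 (adjusted p = 0.328 against eGFP, edgeR).

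Of 28 further ligands of the superfamily 5 had enough reads to be tested against eGFP and 6 against the 3 controls. Against eGFP 2 were negative and 3 positive, and against the 3 controls 2 and 4. At an unadjusted p-value under 0.05 by edgeR, AMH was higher and GDF11 lower in both comparisons. Of all genes, 10.8% were lower and 8.42% higher against eGFP, and 10.2% and 8.58% against the 3 controls. GDF11 had 2.88 and 0.773 RPM in GIRK1, 7.61 and 6.06 RPM in eGFP and 4.30 RPM in WT replicate 2. Neither edgeR nor DESeq2 called it. AMH, the anti-Müllerian hormone, rose from 1.17, 1.37 and 1.31 RPM in eGFP and WT replicate 2 to 5.13 and 6.38 RPM in GIRK1, with a fitted log2 fold change of 2.13 (adjusted p = 0.0442, standard error 0.35) against the 3 controls and 2.12 (standard error 0.44, adjusted p = 0.0801) against eGFP by edgeR. Of all genes, edgeR called 0.799% higher against the 3 controls. The call of AMH there was lost without eGFP replicate 2 (adjusted p = 0.192, edgeR). It was also lost without GIRK1 replicate 1 (log2 fold change 2.30) or GIRK1 replicate 2 (1.95). Without WT replicate 2 the comparison is the one against eGFP, where AMH was not called. GDF15, a stress-induced cytokine, had 10.5 RPM in eGFP replicate 1 against 70.7 RPM in eGFP replicate 2, 91.1 RPM in WT replicate 2 and 91.2 and 106 RPM in GIRK1 (adjusted p = 0.360 against eGFP), and INHBE, the inhibin beta E chain, was at 0 in eGFP replicate 1 and between 6.94 and 13.3 RPM in the other 4 (adjusted p = 0.425, edgeR). For GDF15 and INHBE eGFP replicate 1 was the library that stood apart.

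The BMP-induced list held 5 genes, of which 2 were tested, and these went opposite ways. ID3 had 7.65 and 4.16 RPM in GIRK1, 4.49 and 1.95 RPM in eGFP and 4.24 RPM in WT replicate 2. Its log2 fold change was 0.88 against eGFP and 0.72 against the 3 controls, and edgeR called it in neither. ID1, an inhibitor of basic helix-loop-helix factors, fell from 161 and 126 RPM in eGFP to 50.8 and 55.7 RPM in GIRK1. The fitted log2 fold change was -1.47 (adjusted p = 0.0455 by edgeR, standard error 0.24), and edgeR called 0.745% of all genes lower against eGFP. WT replicate 2 had 73.1 RPM of ID1, and against the 3 controls the value was -1.20 (standard error 0.35, adjusted p = 0.151, edgeR). The call of ID1 against eGFP was lost without GIRK1 replicate 1 (adjusted p = 0.251) or GIRK1 replicate 2 (adjusted p = 0.22), and in the second comparison it passed without eGFP replicate 1 (adjusted p = 0.0485, edgeR).

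WT replicate 1 differed from the other libraries in most members. By exact 95% counting intervals it lay below the eGFP libraries and WT replicate 2 for 5 members, above them for 3 and overlapped them for 2. The same count was not made over all genes, so no share stands beside it. Across 9212 genes the log2 RPM of WT replicate 1 correlated with that of the other libraries at r = 0.572 to 0.583. The other libraries correlated with each other at r = 0.861 to 0.983, so the difference was not particular to the members. TGFBI had 236 reads (94.2 RPM) there, TGFBR2 6 reads (2.39 RPM), TGFBR3 2 reads (0.798 RPM) and TGFB1 108 reads (43.1 RPM), all below the 3 controls, and INHBA had 0 reads, where 3 reads would be 1.20 RPM and the exact interval ends at 1.47 RPM. BAMBI had 568 reads (227 RPM), TGFBR1 134 reads (53.5 RPM) and SMAD7 43 reads (17.2 RPM), all above the 3 controls. With this library in the fit, 0 genes passed against eGFP (606 at an unadjusted p-value under 0.05) and 7 passed against the pooled controls (edgeR), none of them a member. Reads of PCR amplicons are not independent molecules, so the intervals and the floor allow for counting error and nothing else.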

How the data were processed

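Total RNA of 6 libraries was measured by Ion AmpliSeq Transcriptome amplicon sequencing. The authors mapped reads to the AmpliSeq_Transcriptome_21K.v1 reference with the Ion Torrent suite, and the deposited counts are whole reads for each of 20812 amplicons, 1 per gene, of which 10 for spike-in controls (no reads) were left out. The RPM deposited by the authors is each count scaled to the library total. How reads of near-identical copies were handled is not given in the sources used here. The panel does not mark isoforms, and gene positions are from GENCODE 29 (GRCh38), matched by symbol.

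Groups were taken from the sample titles. Counts were tested with edgeR 4.0.16 in R 4.3.3 (filterByExpr, TMM, glmQLFit, glmQLFTest, Benjamini-Hochberg adjustment over all genes tested, threshold 0.05), in 4 libraries (GIRK1 and eGFP) and in 5 (with WT replicate 2 pooled with eGFP). Standard errors were derived from the F value. DESeq2 1.42.0 was an alternative. The fits were tested on simulated data. Depth was 2506120 to 16040556 reads. Exact (Clopper-Pearson) 95% intervals were computed for RPM, with a floor of 3 reads. The members and the gene lists were chosen with earlier results of these data known. From each list, genes called in both comparisons were to be named (there were none), and otherwise the 3 largest fold changes against eGFP among genes averaging 50 or more reads in those 4 libraries. A gene of the TGF-beta-induced list that the rule names is not reported here. AMH, GDF11, ID3, LTBP3 and LTBP4 were named after their values were seen. The alternatives were other normalizations, filters, all 6 libraries, the replicate number as a block, the criterion of the methods and leaving out each library. The comparison with WT replicate 2 alone, and WT replicate 2 as its own group in the first fit, were added after the data were seen.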

Additional observations from a re-analysis of the deposited data

Results flagged for a closer look

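In the library labelled WT replicate 1, which enters neither main comparison, 4 genes lay above the eGFP libraries and WT replicate 2 by their counting intervals. BAMBI had 226.6 RPM, against 5.27 to 11.5 RPM in those 3 libraries. TGFBR1 had 53.5 RPM against 26.3 to 31.9 RPM, SMAD7 had 17.2 RPM against 8.85 to 10.2 RPM, and KCNJ3 had 19.2 RPM against no read.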

How the results depend on the processing

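The count of genes called against eGFP (172) was 881 without a filter, 111 with at least 10 reads in every library, 694 with DESeq2, 0 with all 6 libraries (606 at an unadjusted p-value below 0.05), 590 with the replicate block and 1309 by the criterion of the methods. Leaving out 1 library gave 89 (without GIRK1 replicate 2) to 2933 (without eGFP replicate 2). The count against the 3 controls (1.21% of 11389 genes) was 374 without a filter, 798 with DESeq2, 7 with all 6 libraries and 558 with the block, and 19 to 984 with 1 library left out (lowest without GIRK1 replicate 2, highest without eGFP replicate 1). Members called against eGFP (0) numbered 3 without a filter, with DESeq2 and with the block, 1 by the criterion of the methods, and 0 to 4 with 1 library left out. Against the 3 controls (0) they numbered 1 without a filter, 2 with DESeq2, 2 with the block and 0 to 2 with 1 library left out. Of 216 values of single members under the alternatives, 189 kept their direction and side of the threshold, 23 kept the direction and passed, and 4, all of BAMBI, turned sign: -0.12 (without eGFP replicate 1) and -0.79 (without GIRK1 replicate 2) against eGFP, where leaving out 1 library gave -0.79 to 0.70, and 0.13 (without WT replicate 2) and 0.42 (without GIRK1 replicate 1) against the 3 controls, where it gave -1.07 to 0.42. Leaving out WT replicate 2 turns the second comparison into the first, so the value 0.13 repeats the first comparison. The cause of the turns was not tested. The replicate differences correlated across 9212 genes with r = 0.193 between eGFP and GIRK1, 0.13 between WT and eGFP and 0.036 between WT and GIRK1. The labels do not say whether libraries of the same replicate number were processed together, and this was not tested. Under the block the calls were TGFB2, INHBA and TGFBI against eGFP (adjusted p = 0.0233, 0.0248 and 0.0270, edgeR). Against the 3 controls they were TGFB2 and TGFBI (adjusted p = 0.0207 and 0.0365, edgeR). Other scalings moved the median of all genes by less than 0.1 on the log2 scale. Where an arm was left with 1 library, it was assumed to vary like the other group. Depth limits TGFB3.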

Other observations

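Several pathway genes that were at or near 0 in the 5 other libraries had reads in the library labelled WT replicate 1. These genes were chosen after their values were seen. BMP7 had 749 RPM there and at most 0.195 RPM in any of the other 5, INHBB had 113 RPM and no read elsewhere, and SMAD6, an inhibitory SMAD induced by BMP, had 33.5 RPM against at most 0.0967 RPM. ID2 had 37.9 RPM against at most 0.193 RPM. CDKN2B, a cell-cycle inhibitor that TGF-beta induces and whose locus is known to be deleted in MCF10A, had 11 reads (4.39 RPM) in WT replicate 1 and 0 reads in each of the other 5 libraries. A count of 0 allows up to 0.187 to 0.585 RPM at their depths.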
